A study of Mus musculus with 96 samples.

Results

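The nuclear genes for NADH:ubiquinone oxidoreductase, complex I of the respiratory chain, were followed in mouse embryonic stem cells (ESCs) in which the Polycomb protein RYBP or the Trithorax component WDR5 was depleted, induced or altered. The members are the protein-coding genes named Nduf with the letters a, ab, b, c, s, v or af and a number. There are 45 of them among the 37620 genes of the count tables, of which 22337 are protein-coding. The symbol came from the Ensembl identifier, and 4 members were found through an older symbol. A second Ndufb8 gene model had 0 counts in every library and was left out. The series holds 96 samples, of which 26 are RNA-seq libraries in 7 count tables and 70 are ChIP-seq libraries. Gene counts ranged from 14512857 to 81049618 per library, and all 45 members passed the filter on low counts in each table.

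Each comparison has 2 libraries per group, and nothing in the labels says that replicates were separate cultures, so the p-values measure the spread between these libraries only. In the knockout, Rybp-floxed ESCs of the R7.15 line were made Rybp-/- with 5 µM 4-OHT for 4 days and set against Rybp+/+ ESCs of the same line. No 4-OHT is given for the Rybp+/+ libraries, so 4-OHT and the loss of Rybp cannot be told apart in RNA or peaks. In the knockdowns, R1 ESCs carried an shRNA against Rybp (shRybp) or Wdr5 (shWdr5), and both were set against the same empty vector libraries (shEV). The rTRS line carries DOX-induced Rybp and Stat3, and libraries labelled DOX were compared with libraries labelled NTC. In the J1 line with a Tet-on RYBP, DOX was compared with vehicle. R1 ESCs with a mutation labelled TF-AA were compared with WT ESCs. The last comparison used R7.15 ESCs of the genotype RYBPfl/fl Rosa26::CreERT2, all treated with 4-OHT, that overexpressed either WT RYBP or RYBP with a 21 aa deletion, which the labels call RYBP phase disruption. ChIP-seq peaks were also read in R1 ESCs with an shRNA against Stat3 (shStat3) or shEV, and in ESCs with DOX-induced Rybp and Stat3 without and with DOX. How many clones each line stands for is not given in the sources used here.

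Complex I takes electrons from NADH, passes them along flavin and iron-sulfur centres to ubiquinone, and pumps protons across the inner mitochondrial membrane. Its core subunits are split between the nuclear genome (among them Ndufs1, Ndufs3, Ndufs7, Ndufs8, Ndufv1 and Ndufv2, in the peripheral arm in the matrix) and mitochondrial DNA (the mt-Nd genes, which form the proton-pumping membrane arm). Accessory subunits surround both arms, and the NDUFAF proteins help to assemble the complex and then leave it. Ndufa4 carries the family name but its protein is now placed with complex IV. ESCs rely strongly on glycolysis and still express the respiratory chain.

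Promoter sequences are printed first because peaks and RNA are described at them below. They are the bases just upstream of the annotated gene start, 5' to 3' on the gene's strand, from the NCBIM37 (mm9) genome, and the windows overlap no annotated exon. Ndufb10 and Ndufv1 were the members called in the most comparisons, Ndufv3 was lower in the knockout, and Ndufaf8 carried the strongest WDR5 peak. Ndufaf4 and Ndufa6 show the NRF1 letters GCATGCGC (or GCGCATGC on the other strand) in capitals. Ndufb9 shows the GABPA letters CTTCCGG. Read from the other strand these are CCGGAAG. NRF1 and GABPA are transcription factors known for binding promoters of respiratory genes. The windows are chr17:24861424-24861543 (minus strand) for Ndufb10, chr19:4012807-4012926 (minus) for Ndufv1, chr17:31656940-31657059 (plus) for Ndufv3, chr11:119960122-119960241 (plus) for Ndufaf8, chr4:24825110-24825229 (plus) for Ndufaf4, chr15:82184722-82184841 (minus) for Ndufa6 and chr15:58765290-58765364 (plus) for Ndufb9.
Ndufb10: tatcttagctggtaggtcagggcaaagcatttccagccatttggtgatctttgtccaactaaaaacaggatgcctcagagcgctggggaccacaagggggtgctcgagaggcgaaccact
Ndufv1: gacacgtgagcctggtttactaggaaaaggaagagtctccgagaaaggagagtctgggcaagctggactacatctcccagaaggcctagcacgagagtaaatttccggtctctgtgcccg
Ndufv3: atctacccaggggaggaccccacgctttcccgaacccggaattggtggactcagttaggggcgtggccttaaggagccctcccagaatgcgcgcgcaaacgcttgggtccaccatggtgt
Ndufaf8: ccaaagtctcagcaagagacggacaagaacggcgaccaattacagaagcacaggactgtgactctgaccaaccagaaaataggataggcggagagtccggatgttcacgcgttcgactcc
Ndufaf4: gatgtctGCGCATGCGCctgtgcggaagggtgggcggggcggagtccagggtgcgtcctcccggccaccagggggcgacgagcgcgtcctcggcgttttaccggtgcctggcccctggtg
Ndufa6: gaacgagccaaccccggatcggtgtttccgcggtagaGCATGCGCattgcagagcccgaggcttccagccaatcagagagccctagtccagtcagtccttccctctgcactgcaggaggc
Ndufb9: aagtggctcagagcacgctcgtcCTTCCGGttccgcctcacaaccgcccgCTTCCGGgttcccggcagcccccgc

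The window from 250 bases before to 50 bases after the gene start was searched on both strands. NRF1 letters stood in 4 of the 45 members (8.89%), against 3.3% of all protein-coding genes. Among expressed protein-coding genes, meaning those tested in the Rybp knockout comparison, the share was 4.59%. GABPA letters stood in 7 members (15.6%), against 10.8% and 14.9%. The letters AAGATGGC (GCCATCTT on the other strand), as YY1 is known to bind, also stood in 7 members (15.6%), against 3.3% of all and 4.03% of expressed protein-coding genes. These YY1 letters lay in the first transcribed bases and on the gene's own strand in the 5 members printed here, and they contain an ATG. The capitals mark the letters, within 24 bases on the gene's strand: chr7:3568989-3569012 for Ndufa3, chr6:126799118-126799141 for Ndufa9, chr11:119960250-119960273 for Ndufaf8, chr19:44629879-44629902 for Ndufb8 and chr13:115178252-115178275 for Ndufs4.
Ndufa3: ccaagaacAAGATGGCcgggagta
Ndufa9: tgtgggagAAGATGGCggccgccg
Ndufaf8: cagggcccAAGATGGCggcgccct
Ndufb8: agaaggtgAAGATGGCtgccgccc
Ndufs4: cctacaggAAGATGGCggcggtct
A match describes these letters only, and a gene without a match may hold other forms of the site. The GC content of the window had a median of 57.3% in the members, against 59.3% in expressed and 55.3% in all protein-coding genes.

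Levels are given as CPM, counts scaled to the TMM-adjusted library size, and between genes as CPM per kb of exon length. Over the control groups of the 7 tables, where the same shEV libraries enter both knockdown tables, Ndufa4 had the highest mean level. It was 221.8 CPM per kb (165 to 247.6 across groups). The membrane arm subunit Ndufb9 had 98.92 (65.94 to 126.9), a range that lay wholly below that of Ndufa4. The lowest were the assembly factors Ndufaf4 (9.623) and Ndufaf5 (4.341) and the membrane arm subunit Ndufb2 (0.4965 CPM per kb, a mean of 2.79 CPM). Exons of Ndufb2 overlap Adck2, Braf and Gm16272, so reads there may have been left uncounted. Exons of Ndufa13, Ndufa2, Ndufb11, Ndufb5, Ndufb6, Ndufb8, Ndufs1 and Ndufs3 also overlap another gene or gene model, and their counts are uncertain to that extent, since use of strand in the counting is not given in the sources used here.

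The targeted genes were checked first. Rybp had 110 and 111 CPM in Rybp+/+ and 24.8 and 24.9 in Rybp-/- libraries, and 85.7 and 86.3 in shEV and 35.8 and 36.5 in shRybp libraries. Wdr5 had 350 and 342 CPM in shEV and 59.9 and 58.1 in shWdr5 libraries. Rybp rose from 135 and 145 to 520 and 535 CPM in the Tet-on RYBP line. In the rTRS line the libraries labelled DOX had 102 and 99.5 CPM of Rybp against 113 and 110 in NTC, and Stat3 had 191 and 188 against 159 and 172, so that the labelled induction is not visible in the Rybp counts. All 10 pluripotency markers checked (Pou5f1, Sox2, Nanog, Esrrb and others) were detected in every library. Of the 7 fibroblast or feeder markers, 1 to 4 were at 0 in the libraries outside the R7.15 line and none in the R7.15 libraries. Because these are bulk samples, fewer cells of a type and less RNA per cell cannot be told apart.

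**Figure D1:**
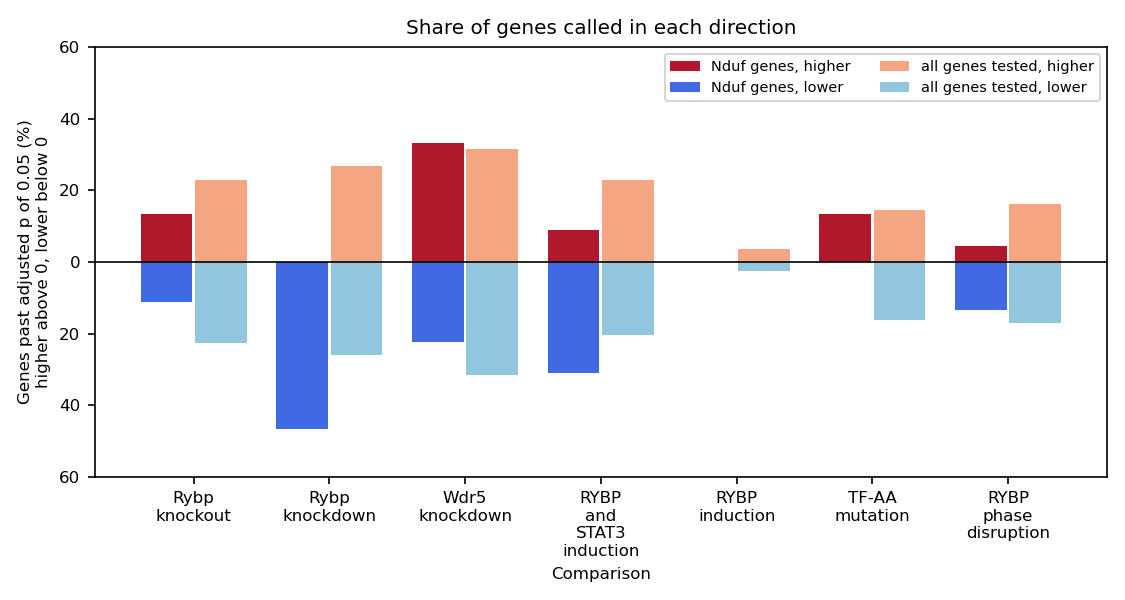
Share of genes past an adjusted p of 0.05 in each comparison (y axis, %), higher above 0 and lower below 0, for the 45 Nduf genes (dark bars) and all genes tested (light bars), with the rTRS line named RYBP and STAT3 induction. The Nduf genes were called in 1 direction only after Rybp knockdown (21 lower) and in the TF-AA mutation (6 higher), and in neither after RYBP induction.

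After Rybp knockout, 11 of the 45 Nduf genes changed, 6 higher and 5 lower, at an adjusted p under 0.05 in the quasi-likelihood test of edgeR, where p-values were adjusted by Benjamini-Hochberg over every gene that entered the fit. This is 24.4% of the members, below the 45.5% of all 16955 genes called in this comparison. By role, the 4 membrane arm accessory subunits that changed (of 20), the core subunit Ndufv1 and Ndufa4 were higher, while 4 of the 8 NDUFAF assembly factors and the peripheral arm subunit Ndufv3 were lower. The median log2 fold change was 0.04 over all members and -0.17 over the assembly factors, against 0.002 over all genes tested.

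Ndufaf7, a methyltransferase that modifies a core subunit during assembly, had 35.4 and 34.9 CPM in Rybp+/+ and 25.2 and 26.5 CPM in Rybp-/- libraries (log2 fold change -0.44, SE 0.06, edgeR adjusted p = 2.13e-07). Ndufv3, a small subunit of the NADH-oxidising module, had 76.6 and 77.4 against 61 and 58 CPM (-0.37, SE 0.04, edgeR adjusted p = 2.59e-08). In both genes the knockout libraries lay below both controls by more than the replicates differed. Knockout libraries lay below both controls in 11 of the 45 members. Smaller falls were found for Ndufaf3 (-0.25), Ndufaf6 (-0.20) and Ndufaf2 (-0.18), with edgeR adjusted p of 0.0112, 0.0281 and 0.0303. Ndufa4 rose from 121 and 122 to 145 and 140 CPM (0.23, SE 0.04, edgeR adjusted p = 2.5e-06). Ndufa11, which sits where the arms of the complex meet, rose from 64.2 and 68.9 to 79.9 and 74.9 CPM (0.22, SE 0.05, edgeR adjusted p = 0.000128). The rises of Ndufb9 (0.16), Ndufa8 (0.14), Ndufb10 (0.12) and the flavin-binding core subunit Ndufv1 (0.09, 130 and 134 against 143 and 138 CPM) were smaller still, none above 1.118-fold. Among the named genes, Ndufa4, Ndufa11, Ndufaf7 and Ndufv3 passed the threshold under each alternative tried. The count fell to 5 without Rybp-/- replicate 1 and to 7 without Rybp-/- replicate 2, and it was 5 with DESeq2 and 7 with no filter on low counts. Markers moved with this comparison. Of 7 fibroblast markers 6 were higher, and their summed level was 56.7 to 57.2 CPM in Rybp+/+ and 113.6 to 119.7 CPM in Rybp-/- libraries, none of them at 0. Of the other lists, 4 of 4 trophoblast markers tested (97.5 to 97.9 against 111.8 to 115 CPM in sum) and 3 of 5 primitive endoderm markers (7.46 to 8.82 against 14.8 to 16.3 CPM) were higher, and of 10 pluripotency markers 6 were higher and 3 lower (6276 to 6404 against 6715 to 6732 CPM). Their part in the changes of Nduf genes was not tested.

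After Rybp knockdown in R1 ESCs, 21 of the 45 members fell and none rose. Over all 16538 genes tested, 52.7% were called, 26.8% higher and 26% lower, so the 46.7% of members called is near the background while all of them lie on the lower side. The fitted change was negative in 34 of 45 members, with a median of -0.15 against 0.02 over all genes tested. Every role was touched except Ndufa4 (122 and 118 CPM in shEV, 118 and 108 in shRybp). Falls were called in 6 of 8 NDUFAF assembly factors (median -0.29), 8 of 20 membrane arm subunits, 4 of 9 peripheral arm accessory subunits and 3 of 7 core subunits.

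Ndufb10, a membrane arm subunit, fell most, from 66.4 and 60.1 CPM in shEV to 44.6 and 38.8 CPM in shRybp libraries, or to 0.66 of the control (log2 fold change -0.60, SE 0.07, edgeR adjusted p = 1.42e-06). Ndufb11, encoded on the X chromosome and part of the same arm, fell from 76.3 and 78.3 to 55.5 and 54.6 CPM (-0.49, SE 0.06, edgeR adjusted p = 8.61e-07). Ndufv3 fell from 47.0 and 45.2 to 33.8 and 34.3 CPM (-0.44, SE 0.07, edgeR adjusted p = 2.53e-05). For all 3 genes the shRybp libraries were below both shEV libraries, as in 29 of the 45 members. The assembly factor Ndufaf5, which hydroxylates a core subunit, fell from 11.6 and 11.3 to 8.36 and 7.92 CPM (-0.49, SE 0.12, edgeR adjusted p = 0.00203). Of the core subunits, Ndufv2 fell from 85.3 and 84.4 to 63.4 and 62.5 CPM (-0.43, SE 0.06, edgeR adjusted p = 2.69e-06) and Ndufs1, the largest iron-sulfur subunit, from 170 and 169 to 145 and 136 CPM (-0.28, SE 0.05, edgeR adjusted p = 0.000131). Ndufv1 fell less, from 190 and 187 to 171 and 166 CPM (-0.16, edgeR adjusted p = 0.00772). The groups did not overlap for any of these core subunits, while over all 45 members they overlapped in 13. Ndufs7 (82.3 and 85.7 against 85.4 and 81.8 CPM) did not pass the test.

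The falls of Ndufb10, Ndufb11, Ndufv3 and Ndufaf5 passed under each alternative, and leaving out 1 library at a time gave 14 to 20 calls. All were lower except without shEV replicate 1, where 2 members were higher and 14 lower. Markers moved here as well. Of 10 pluripotency markers, 5 were lower and 4 higher, with a summed level of 9347 to 9637 CPM in shEV and 7990 to 8047 CPM in shRybp. Of 4 trophoblast markers, 3 were higher (76.1 to 83.5 against 135.2 to 137.8 CPM), as were 4 of 5 primitive endoderm markers (9.64 to 13.3 against 23.5 to 26.8 CPM) and all 3 fibroblast markers tested (18.6 to 18.8 against 30.6 to 31.9 CPM over the list, with Lum and Dcn at 0). Their part in the falls was not tested.

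**Figure D2:**
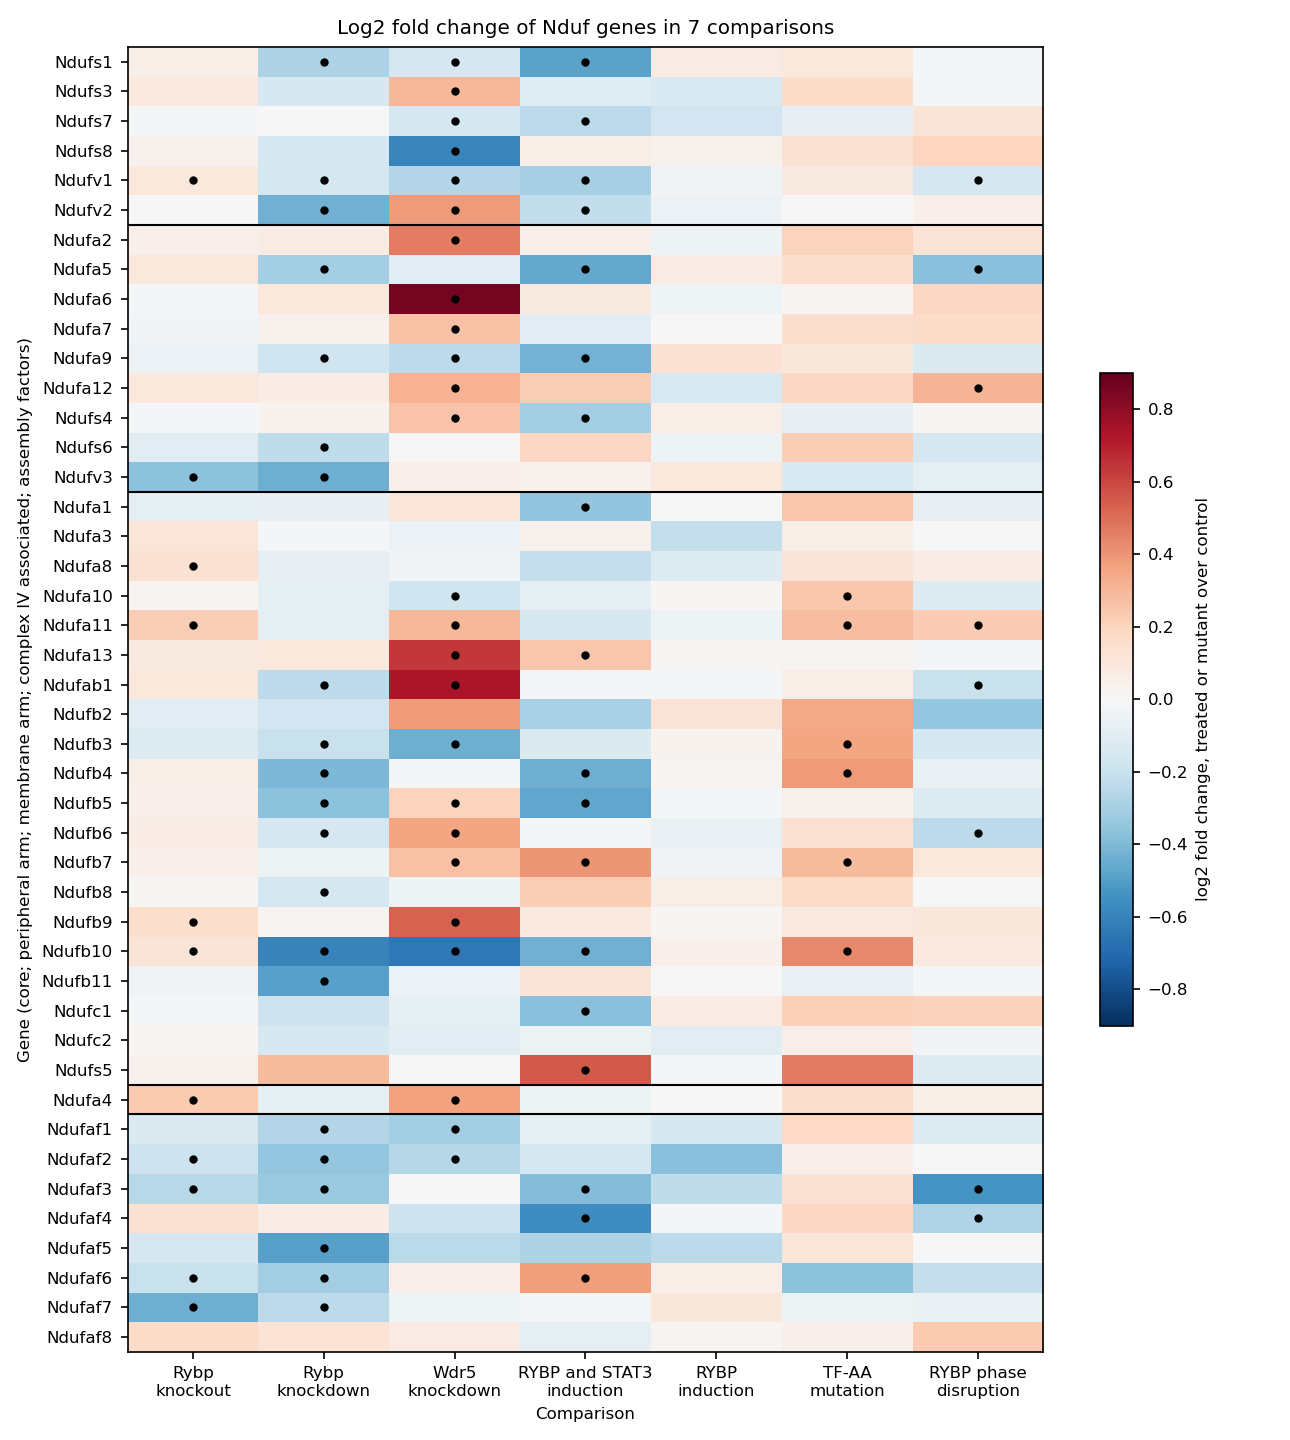
Log2 fold change of the Nduf genes shown (rows, grouped by role from core subunits at the top to assembly factors at the bottom) in the 7 comparisons (columns), red for higher and blue for lower in the treated or mutant libraries, with a dot where the adjusted p is under 0.05. The Rybp knockdown column holds dots on blue only, and the Wdr5 knockdown column holds the darkest red (Ndufa6, 0.86) and the lowest value of the plot (Ndufb10, -0.65).

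As an effect found in 1 depletion and missed in the other is not shown to differ, the difference between the Rybp knockout and the Rybp knockdown was tested directly by an interaction term over all 8 libraries. In 17 of the 45 members the change in the knockout lay above that in the knockdown, and in none below, at an adjusted p under 0.05. Without shEV replicate 1 it was above in 15 and below in 1. This is 37.8% of the members, against 40.5% of all 18203 genes tested (22.2% above and 18.2% below). The 17 members were 9 membrane arm subunits, 5 core subunits, 1 peripheral arm subunit, 1 assembly factor and Ndufa4. The largest difference was that of Ndufb10 (0.12 in the knockout and -0.60 in the knockdown, difference 0.74, SE 0.09, edgeR adjusted p = 3e-07). Next were Ndufb11 (difference 0.48, SE 0.07, edgeR adjusted p = 5.74e-06), Ndufb4 (0.48, SE 0.11, edgeR adjusted p = 6.93e-04) and the core subunit Ndufv2 (0.45, SE 0.06, edgeR adjusted p = 5.22e-06). Each of these 4 had a knockout change between -0.03 and 0.12 and a knockdown change of -0.41 or lower. Of the NDUFAF factors only Ndufaf5 passed this test (-0.15 and -0.49, difference 0.37, edgeR adjusted p = 0.0293). The cell line and the way of depletion differ together between these experiments, and their parts cannot be told apart.

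**Figure D3:**
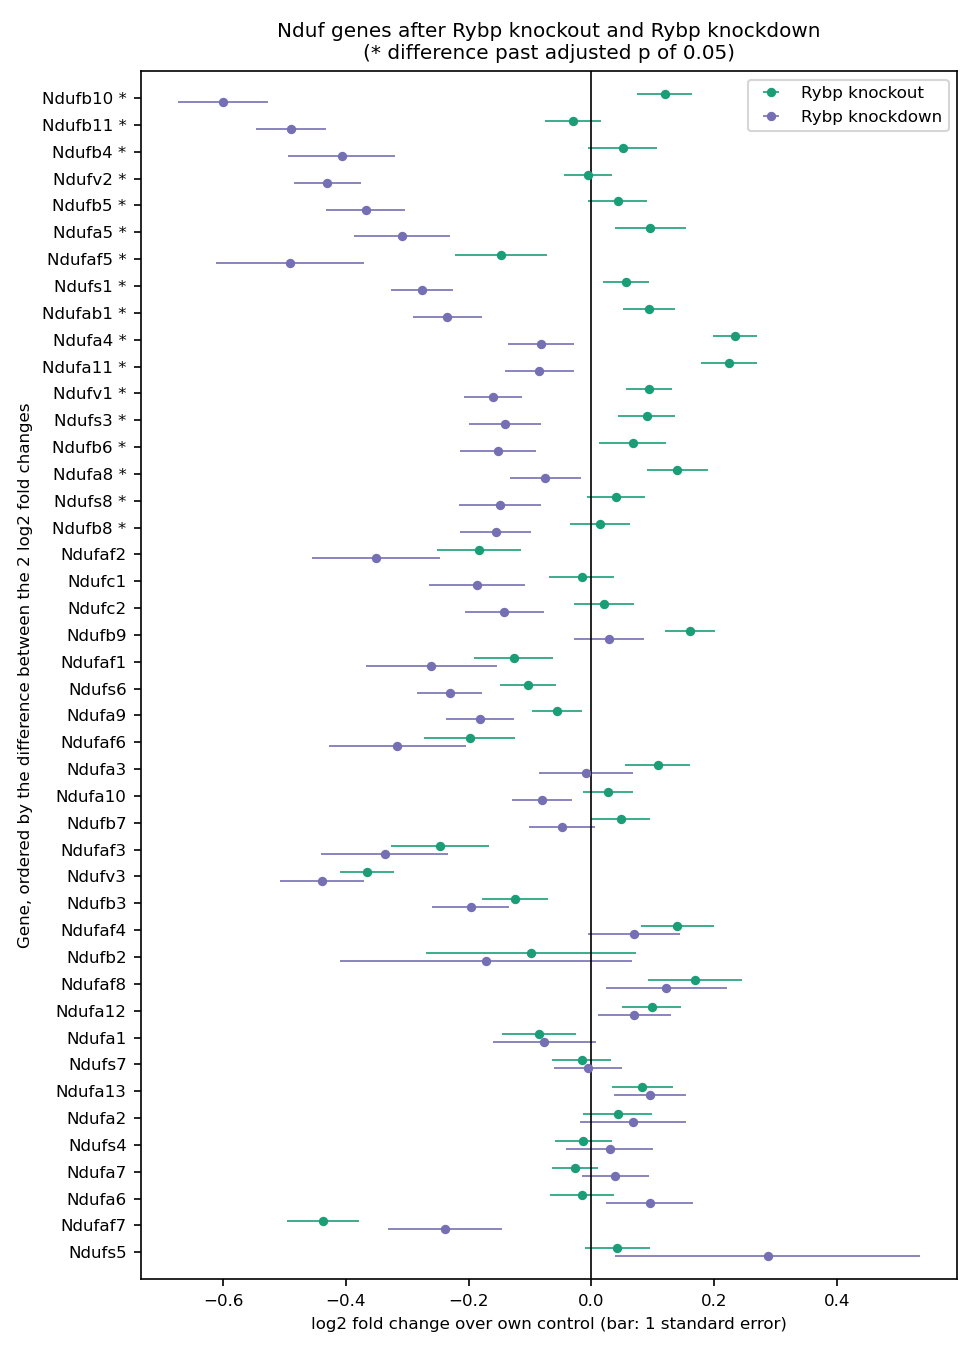
Log2 fold change over the own control (x axis, points with bars of 1 standard error) of the Nduf genes shown (y axis, ordered by the difference) after Rybp knockout and Rybp knockdown, with an asterisk where the difference passed. Ndufb10 stands at the top with 0.12 and -0.60, and Ndufv3 lies on the lower side in both (-0.37 and -0.44).

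After Wdr5 knockdown, 25 of the 45 members changed, 15 higher and 10 lower, which is 55.6% against 63% of all 15143 genes tested (31.5% higher and 31.5% lower). WDR5 is a shared core of the complexes that methylate lysine 4 of histone H3. Higher were 7 membrane arm subunits, 5 of 9 peripheral arm accessory subunits, Ndufa4 and the core subunits Ndufv2 and Ndufs3. Lower were 3 membrane arm subunits, 1 peripheral arm subunit, 2 assembly factors and the core subunits Ndufs8, Ndufv1, Ndufs7 and Ndufs1. Because the shEV libraries are shared with the Rybp knockdown, the values stand side by side and no overlap between both was computed.

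Ndufa6, a subunit that docks an acyl carrier protein on the peripheral arm, rose from 37.4 and 34.4 CPM in shEV to 65.4 and 65.0 CPM in shWdr5 libraries, or 1.82-fold (log2 fold change 0.86, SE 0.07, edgeR adjusted p = 8.51e-11). Ndufab1, which encodes the mitochondrial acyl carrier protein itself, rose from 85.9 and 81.3 to 137 and 141 CPM (0.74, SE 0.05, edgeR adjusted p = 2.99e-11). The replicates of each group lay close together and far from the other group in both genes. Ndufa13, also known as GRIM-19, rose from 69.4 and 64.3 to 103 and 105 CPM (0.64, SE 0.06, edgeR adjusted p = 1.16e-09), and Ndufb9 from 80.0 and 74.5 to 113 and 110 CPM (0.53, SE 0.06, edgeR adjusted p = 1.87e-08). Of the core subunits, Ndufv2 (80.3 and 79.2 against 103 and 105 CPM) and Ndufs3 (62.1 and 60.3 against 72.3 and 78.6 CPM) rose by 0.38 and 0.30 on the log2 scale.

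The largest fall was again that of a membrane arm gene. Ndufb10 had 63 and 56.8 CPM in shEV and 41.4 and 35.1 CPM in shWdr5 libraries (-0.65, SE 0.08, edgeR adjusted p = 1.2e-07). Ndufs8, an iron-sulfur subunit next to the ubiquinone site, fell from 42.5 and 42.4 to 29.2 and 26.9 CPM (-0.60, SE 0.07, edgeR adjusted p = 2.65e-07). Ndufb3 fell from 63.2 and 58.0 to 44.7 and 44.8 CPM (-0.44, SE 0.07, edgeR adjusted p = 3.75e-06). In these 3 genes no shWdr5 library reached the level of a shEV library, as in 17 of the 45 members. Ndufv1 (178 and 176 against 146 and 149 CPM, -0.26), the assembly factor Ndufaf1 (18.7 and 18.6 against 15.1 and 15.0 CPM, -0.31), Ndufs7 (-0.16) and Ndufs1 (-0.15) fell less. The changes of Ndufa6, Ndufab1, Ndufa13, Ndufb9, Ndufb10, Ndufs8 and Ndufb3 passed under each alternative, and that of Ndufaf1 missed the threshold in DESeq2. Of the 10 pluripotency markers, 7 were lower and 2 higher (8798 to 9064 CPM in sum in shEV, 7340 to 7408 in shWdr5), 4 of 5 primitive endoderm markers were higher (9.79 to 13.0 against 34.1 to 34.2 CPM), and so were both called trophoblast markers of 3 tested (72.1 to 79.0 against 208.6 to 217 CPM). Of 3 fibroblast markers tested, 1 was higher and 1 lower (18.0 to 18.3 against 15.3 to 15.7 CPM over the list, with Lum and Dcn at 0). Their part in the changes was not tested.

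**Figure D4:**
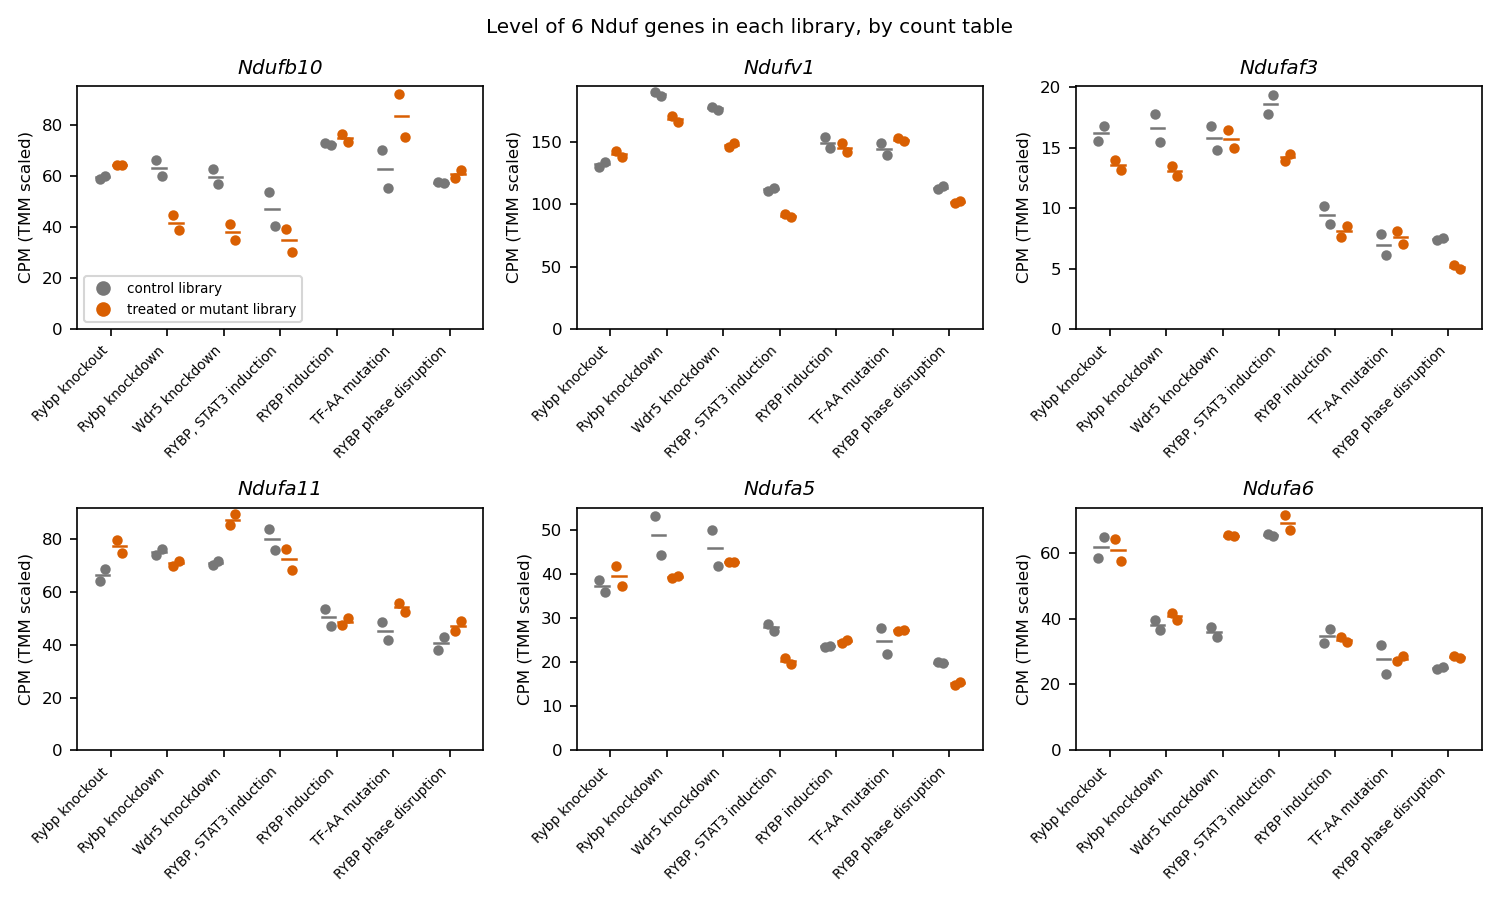
Level of 6 Nduf genes (y axis, TMM-scaled CPM, starting at 0) in every library of the 7 count tables (x axis), control libraries in grey and treated or mutant libraries in orange, with bars for group means. Ndufb10 lies below its controls in both knockdowns and above them in the TF-AA mutation, and Ndufa6 stands apart from its controls after Wdr5 knockdown (65.4 and 65.0 against 37.4 and 34.4).

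In the rTRS line, 18 of the 45 members differed between libraries labelled DOX and NTC, 4 higher and 14 lower, or 40% against 43.4% of all 16291 genes tested (23% higher and 20.4% lower). The lower genes included 4 of 7 core subunits, 5 membrane arm and 3 peripheral arm accessory subunits and 2 assembly factors. The assembly factor Ndufaf4 fell from 42.5 and 47.6 CPM in NTC to 30.6 and 30.6 CPM in DOX libraries (log2 fold change -0.56, SE 0.09, edgeR adjusted p = 0.000229). Ndufs1 fell from 231 and 252 to 173 and 173 CPM (-0.48, SE 0.07, edgeR adjusted p = 5.95e-05). Both DOX libraries lay well below both NTC libraries in these genes, and they lay below both in 22 of the 45 members. Ndufb5 (75.4 and 76.7 against 52.5 and 57.4 CPM, -0.47) and the peripheral arm subunit Ndufa5 (28.6 and 27.1 against 20.9 and 19.6 CPM, -0.46) fell to a like extent. The core subunits Ndufv1 (111 and 113 against 92.2 and 89.8 CPM, -0.30), Ndufs7 (-0.24) and Ndufv2 (-0.22) fell less.

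On the higher side stood Ndufaf6 (16.5 and 16.3 against 21.6 and 20.9 CPM, 0.38), Ndufa13 (0.25), Ndufb7 and Ndufs5. The groups of Ndufb7 overlapped (51.0 and 42.6 against 72.5 and 50.6 CPM), and Ndufs5 was low (3.58 and 2.77 against 4.63 and 4.68 CPM). Ndufs5, Ndufb7 and Ndufa13 missed the threshold when single libraries were left out, while Ndufaf6 and the falls of Ndufaf4, Ndufs1, Ndufb5 and Ndufa5 passed under each alternative. The higher members numbered 7 without NTC replicate 1, 2 without NTC replicate 2 and 1 without DOX replicate 1. Pluripotency markers moved strongly in this comparison. Of 10 markers, 8 were lower and none higher, and their sum went from 6876 to 7160 CPM in NTC to 4280 to 4543 CPM in DOX libraries. Of 3 trophoblast markers tested, Cdx2 and Gata3 were higher (0.725 and 0.669 against 9.67 and 10.1 CPM for Cdx2). The 4 listed trophoblast genes summed to 113 to 117.6 CPM in NTC and 123.1 to 126.7 CPM in DOX libraries. Of 5 primitive endoderm markers 1 was higher, and the fitted change was negative in 3 (6.82 to 8.54 against 20.7 to 21.3 CPM in sum). Among 3 fibroblast markers tested, 1 was higher and 1 lower. Their part in the Nduf changes was not tested.

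After RYBP induction alone in the J1 line, no member passed the test in edgeR (6.02% of all 14937 genes did, 3.63% higher and 2.39% lower), 2 had an unadjusted p under 0.05, and DESeq2 called 0. These were Ndufaf2 (21.9 and 20.6 CPM with vehicle, 14.9 and 17.8 with DOX, log2 fold change -0.38, edgeR adjusted p = 0.0686) and Ndufa9 (105 and 108 against 115 and 117 CPM, 0.13, edgeR adjusted p = 0.262). The median over the members was -0.003. Without vehicle replicate 2 the count was 2, both lower. Of the marker lists, 1 of 10 pluripotency markers and the 1 trophoblast marker tested were higher, and no fibroblast or primitive endoderm marker was called.

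In TF-AA mutant ESCs, 6 of the 45 members rose and none fell, or 13.3% against 30.5% of all 14456 genes tested (14.4% higher and 16.1% lower). No core subunit, peripheral arm subunit or assembly factor passed, and all 6 were membrane arm accessory subunits. They are 30% of the 20 membrane arm subunits, against 30.5% of all genes. The median was 0.13 over all members, against 0.01 over all genes. By role it was 0.19 over the membrane arm subunits, 0.148 over the peripheral arm accessory subunits, 0.095 over the core subunits and 0.079 over the NDUFAF assembly factors. Ndufb10 had 70.5 and 55.3 CPM in WT and 92.4 and 75.4 CPM in TF-AA libraries (0.43, SE 0.11, edgeR adjusted p = 0.00315). Ndufb4 rose from 15.9 and 16.7 to 19.4 and 22.5 CPM (0.38, edgeR adjusted p = 0.0215), Ndufb3 from 58.2 and 47.5 to 64.7 and 69.5 CPM (0.36, edgeR adjusted p = 0.00652) and Ndufb7 from 56.3 and 46.8 to 62.8 and 61.7 CPM (0.29, edgeR adjusted p = 0.0244). WT replicate 2 was the lower control for Ndufb10, Ndufb3 and Ndufb7. The summed level of all members was 2639 CPM in WT replicate 1, 2380 in WT replicate 2 and 2741 and 2715 in the TF-AA libraries. The count rested on single libraries: it was 17, all higher, without WT replicate 1, 4 (2 higher and 2 lower) without WT replicate 2, 2 without TF-AA replicate 1 and 1 without TF-AA replicate 2, and DESeq2 called 3. Fibroblast markers summed to 11.0 to 11.7 CPM in WT and 23.8 to 24.5 CPM in TF-AA libraries, with 3 of 3 tested higher and Col3a1, Lum and Dcn at 0. Of 10 pluripotency markers 3 were higher and 2 lower, and 1 of 3 primitive endoderm markers and the 1 trophoblast marker tested were higher. Their part in the changes was not tested.

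Between RYBP phase disruption and WT RYBP, 8 of the 45 members differed, 2 higher and 6 lower, or 17.8% against 33% of all 14575 genes tested (16.1% higher and 17% lower). Ndufa12, a peripheral arm subunit, rose from 55.8 and 62.9 CPM with WT RYBP to 70.7 and 75.2 CPM with the deletion (log2 fold change 0.31, SE 0.07, edgeR adjusted p = 0.000987), and Ndufa11 from 38.1 and 43.0 to 45.1 and 49.1 CPM (0.23). The assembly factor Ndufaf3 fell from 7.38 and 7.56 to 5.28 and 4.95 CPM (-0.54, SE 0.19, edgeR adjusted p = 0.0279) and Ndufa5 from 19.9 and 19.7 to 14.9 and 15.4 CPM (-0.38, edgeR adjusted p = 0.0107). For these 4 genes the groups did not overlap, while over all 45 members they overlapped in 18. Ndufaf4 (-0.27), Ndufb6 (-0.24), Ndufab1 (-0.20) and the core subunit Ndufv1 (112 and 115 against 101 and 103 CPM, -0.15) were also lower. The calls of Ndufa12, Ndufa11, Ndufaf3, Ndufa5, Ndufaf4 and Ndufb6 were each lost under at least 1 alternative. The count was 3 without WT RYBP replicate 1 (all lower), 3 without WT RYBP replicate 2 (1 lower), 5 without phase disruption replicate 1, 4 without phase disruption replicate 2, 1 with DESeq2 and 2 with no filter on low counts. These libraries had the lowest depth of the series, and Rybp itself differed between the arms (751 and 755 against 659 and 623 CPM). Fibroblast markers summed to 425 to 431.9 CPM with WT RYBP and 342.1 to 365.2 CPM with the deletion, with 3 of 7 lower, none higher and none at 0. Of 10 pluripotency markers 1 was higher and 3 lower, and 1 of 4 primitive endoderm and 2 of 3 trophoblast markers tested were higher. Their part in the changes was not tested.

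Ndufb10 and Ndufv1 were called in 5 comparisons and Ndufaf3 and Ndufa11 in 4, a count that includes both knockdowns with their shared controls. A further 12 members, Ndufa5 among them, were called in 3. Ndufaf3, which joins Ndufaf4 in building the ubiquinone module, was lower wherever it was called: in the Rybp knockout (15.6 and 16.8 against 14.0 and 13.2 CPM), the Rybp knockdown (17.8 and 15.5 against 13.5 and 12.7), rTRS (17.8 and 19.4 against 13.9 and 14.5) and phase disruption. Ndufa11 was higher wherever it was called, in the knockout, the Wdr5 knockdown (70.3 and 71.9 against 85.5 and 89.5 CPM), the TF-AA mutation (48.5 and 41.9 against 56.0 and 52.5) and phase disruption. Ndufb10 and Ndufv1 were called in either direction. Among the members that passed in no comparison were Ndufb2, Ndufaf8, Ndufa3 and Ndufc2.

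The other genes of the respiratory chain were read with the same test, from lists chosen for their function. The mt-Nd genes of complex I, which are transcribed in the mitochondrion, were higher for 5 of 7 in the Rybp knockout, 5 of 6 tested in the Wdr5 knockdown, 5 of 5 in the TF-AA mutation, 2 of 7 after RYBP induction and 3 of 7 (1 lower) in rTRS. They were lower for 2 of 6 in the Rybp knockdown and 4 of 5 in phase disruption. Over all genes tested the share higher was 22.8% in the Rybp knockout, 31.5% in the Wdr5 knockdown, 14.4% in TF-AA, 3.63% in RYBP induction and 23% in rTRS, and the share lower was 26% in the Rybp knockdown and 17% in phase disruption. In the Wdr5 knockdown mt-Nd1 rose from 1689 and 1520 to 2590 and 2655 CPM (0.71, edgeR adjusted p = 1.29e-12), and in the TF-AA mutation mt-Nd5 rose from 1388 and 1636 to 2166 and 2376 CPM (0.60, edgeR adjusted p = 2.41e-06). In phase disruption mt-Nd5 fell from 1152 and 1185 to 902 and 818 CPM (-0.43, edgeR adjusted p = 6.5e-10).

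Assembly factors of complex I outside the NDUFAF family (11 genes, such as Ecsit and Nubpl) had 1 higher and 4 lower in the Rybp knockout, 2 and 6 in the Rybp knockdown, 2 and 6 in the Wdr5 knockdown, 1 and 3 in rTRS, 4 and 0 in TF-AA and 1 and 1 in phase disruption. After RYBP induction 0 were called. The share called was 45.5% in the Rybp knockout (45.5% of all genes), 72.7% in the Rybp knockdown (52.7%) and 72.7% in the Wdr5 knockdown (63%). It was 36.4% in rTRS (43.4% of all genes), 36.4% in TF-AA (30.5%) and 18.2% in phase disruption (33%). Ecsit fell from 42.3 and 41.9 to 33.6 and 31.7 CPM in the Rybp knockout (-0.36, edgeR adjusted p = 1.58e-06). Nubpl, which delivers iron-sulfur clusters, fell from 23.6 and 22.9 to 18.0 and 15.7 CPM in the Rybp knockdown (-0.46, edgeR adjusted p = 0.000346). Acad9 fell from 72.2 and 74.6 to 48.3 and 51.2 CPM in the Wdr5 knockdown (-0.56, edgeR adjusted p = 3.6e-08), where Timmdc1 rose (0.63).

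The Rybp knockdown lowered most of the genes of each other complex that were listed: 6 of 8 of complex II, 8 of 9 of complex III, 9 of 11 of complex IV and 14 of 16 of complex V, with none higher, where 26% of all genes were lower. For the counts that follow, the share of all genes called in either direction was 45.5% in the Rybp knockout, 63% in the Wdr5 knockdown, 43.4% in rTRS, 6.02% in RYBP induction, 30.5% in TF-AA and 33% in phase disruption. Examples of the falls in the Rybp knockdown are Sdhd (-0.52), Uqcrh (-0.51), Cox5a (-0.54) and Atp5f1c (-0.75). Medians in the Rybp knockdown were -0.33, -0.30, -0.29 and -0.29 for complexes II to V, against -0.15 over the Nduf genes and 0.02 over all genes. In the Rybp knockout these lists gave 0 higher and 3 lower, 4 and 0, 6 and 1, and 7 and 3. After Wdr5 knockdown they gave 0 and 4, 0 and 1, 8 and 0, and 3 and 1, with Cox5b (0.44) among those that rose. In rTRS they gave 0 and 2, 0 and 4, 1 and 4, and 0 and 9, with Atp5mc1 lower (-0.71). After RYBP induction none was called. The TF-AA mutation gave 0 and 0, 0 and 0, 1 and 1, and 1 and 1, and phase disruption 0 and 0, 0 and 0, 1 and 0, and 2 and 2. Of 12 tested nuclear regulators of respiratory genes, 9 were lower in the Rybp knockdown, among them Yy1 (-1.02, edgeR adjusted p = 1.09e-11) and Ppargc1b (-1.18, edgeR adjusted p = 7.15e-07), and 7 were lower in rTRS, with none higher in either. The regulators gave 4 higher and 4 lower in the knockout, 2 and 4 in the Wdr5 knockdown, none in RYBP induction, 3 and 1 in TF-AA and 4 and 1 in phase disruption.

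Peaks at the promoters came from 1 list per group, called by the authors on merged replicates or, for STAT3 in Rybp+/+ and Rybp-/- ESCs and RING1B in shEV and shStat3 ESCs, with 1 library per group, so no test between genotypes was possible. A promoter was counted when a peak lay within 1 kb of the gene start. An H3K4me3 peak stood at all 45 Nduf promoters in both Rybp+/+ and Rybp-/- ESCs, against 63.9% and 64.1% of all protein-coding genes and 86.5% and 86.7% of the expressed ones. A WDR5 peak stood at 32 promoters (71.1%) in Rybp+/+ and 36 (80%) in Rybp-/- ESCs, against 61.9% and 65% of expressed protein-coding genes. With a -log10 q of at least 10 the order turned: 14 (31.1%) and 18 (40%) promoters had a peak, against 38.2% and 43.9% of expressed genes. No promoter had a WDR5 peak in the Rybp+/+ list only. Ndufa8, Ndufa9, Ndufab1 and Ndufc1 had one in the Rybp-/- list only, with fold enrichments of 4.97, 4.07, 4.76 and 4.93. Ndufa1, Ndufa4, Ndufa6, Ndufb11, Ndufb5, Ndufc2, Ndufs4, Ndufs7 and Ndufs8 had none in either list. Of the Nduf starts, 20 have the start of another gene within 1 kb (3 bp for Ndufs1 and Eef1b2), so a peak there cannot be assigned to 1 gene.

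Fold enrichment of WDR5 had a median of 4.58 in Rybp+/+ and 5.08 in Rybp-/- ESCs over the 32 shared promoters, and it was lower in Rybp-/- at 12 of them. Over 8865 expressed genes with peaks in both lists the medians were 5.82 and 6.0, with 44.1% lower in Rybp-/-. The strongest peak was that of Ndufaf8, from 119959604 to 119961028 on chromosome 11 of mm9, with a fold enrichment of 38.7 in Rybp+/+ and 59.3 in Rybp-/- ESCs. In the Rybp+/+ list 99.1% of peaks were weaker. Its promoter, printed above, lies inside this peak, and the start of Tepsin lies 197 bp away. Ndufb3 followed with 15.1 and 21.3, and Ndufa2 with 8.86 and 17.8. At Ndufb10 the WDR5 peak was weak, 3.48 and 2.71. Summits of WDR5 peaks lay close to the start, with a median of 59 bp downstream and 25 of 32 within 250 bp.

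H3K4me3 at these promoters had median fold enrichments of 40.5 and 39.8, ranges of 15.1 to 56.6 and 13.4 to 57.8, and lower values in Rybp-/- at 25 of 45. Over 12929 expressed genes the medians were 36.3 and 37.5, with 45.8% lower in Rybp-/-. The weakest values were at Ndufb5 (15.1 and 13.4), where each list held 2 peaks and the strongest was read. These were different peaks, with summits at -1062 bp from the gene start in Rybp+/+ and at 840 bp in Rybp-/- ESCs. This pair is among the 25. Summits in the Rybp+/+ list had a median of 239 bp downstream of the start, with 15 of 45 within 250 bp. H3K27ac peaks stood at 43 promoters in each list (68.5% and 71.9% of expressed genes), absent at Ndufb5 and Ndufs7.

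**Figure D5:**
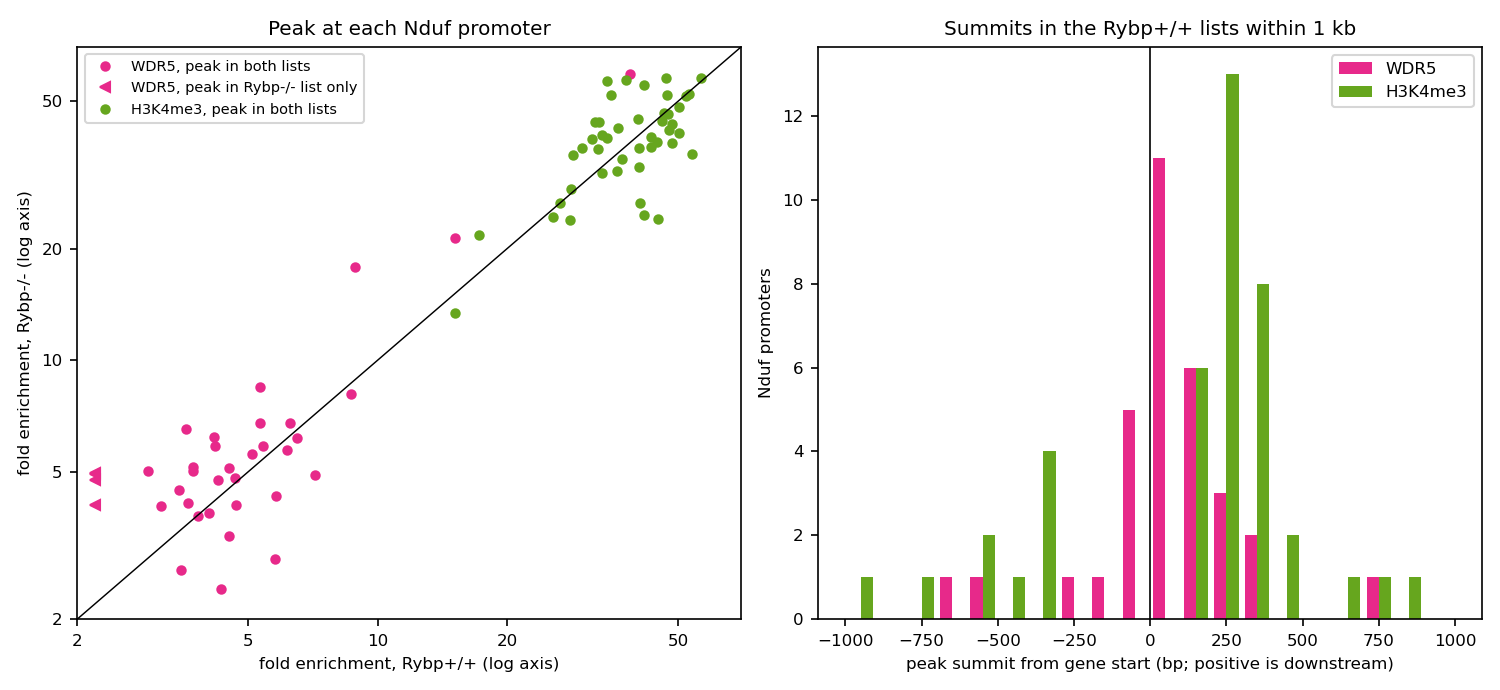
Left, fold enrichment of the strongest peak within 1 kb of each Nduf start in Rybp+/+ (x axis) and Rybp-/- ESCs (y axis), both on log axes. WDR5 is pink and H3K4me3 green, with the line of equality and triangles for WDR5 peaks in the Rybp-/- list only. The H3K4me3 values of Ndufb5 come from different peaks in the lists. Right, number of Nduf promoters (y axis) by the distance of the Rybp+/+ summit from the gene start (x axis, bp): WDR5 summits gather at the start (median 59) and H3K4me3 summits downstream of it (median 239), with 4 H3K4me3 summits beyond 1 kb not drawn.

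Members with and without a WDR5 peak in Rybp+/+ ESCs were also compared by RNA, as a description. The knockdown and TF-AA RNA comes from R1 ESCs, so peaks and RNA were not read in the same cells. In the Rybp knockdown 17 of 32 with a peak and 4 of 13 without one fell (26% of all genes did), with medians of -0.16 and -0.14. In the Wdr5 knockdown 10 were higher and 7 lower of 32 with a peak, and 5 higher and 3 lower of 13 without one (31.5% of all genes were higher and 31.5% lower), with medians of 0.001 and -0.025. Ndufa6, the member with the largest rise after Wdr5 knockdown, and Ndufs8, with the fall next to that of Ndufb10, both lacked a WDR5 peak in these lists. The 6 members that rose in the TF-AA mutation all had a peak, as did 32 of all 45 members (71.1%). Those TF-AA calls rested on single libraries, as given above.

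RING1B, the catalytic subunit of PRC1, and STAT3 were read at the same promoters, RING1B in other lines and STAT3 also in Rybp+/+ and Rybp-/- ESCs. In the line with DOX-induced Rybp and Stat3, RING1B peaks stood at 24 Nduf promoters (53.3%) without DOX and at 6 (13.3%) with DOX, against 68.8% and 50.9% of expressed genes. In R1 ESCs with shRNA vectors they stood at 14 (31.1%) with shEV and 7 (15.6%) with an shRNA against Stat3, against 56.2% and 50.7%, from 1 library each. Ndufa13 had the strongest RING1B peak in each of the 4 lists (21.2 without and 12.1 with DOX, 10.8 in both others). STAT3 peaks stood at 2 promoters without DOX (Ndufaf6 and Ndufs1) and at 27 (60%) with DOX, against 10.9% and 71% of expressed genes, and at none in the Rybp+/+ or Rybp-/- lists (8.58% and 7.57%). The lists differ in length (2816 peaks without and 30663 with DOX for STAT3, 17021 and 12864 for RING1B, 14408 with shEV and 12017 with shStat3), and their part in these counts was not tested.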

How the data were processed

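RNA-seq was analysed from 7 count tables and peaks from the MACS2 lists. Per the labels and the study's methods, the authors trimmed reads with Trim Galore, aligned RNA-seq reads with STAR to mm9 and deposited HTSeq counts per gene, not normalized; the annotation and the use of strand are not given in the sources used here. For ChIP-seq the authors aligned to mm9, merged replicates where there were any and deposited MACS2 peaks with fold enrichment (a ratio to background) and the -log10 of the q value. The genome here is NCBIM37, and of 316354 peaks 0 lay on an unknown chromosome or past its end.

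Symbols came from a gene name table (37205 of 37620 IDs matched). The 5 summary rows of 6 tables were left out. Counts were fitted per table with edgeR 4.0.16 in R 4.3.3 (TMM, filterByExpr, quasi-likelihood test, Benjamini-Hochberg over all genes tested, threshold 0.05), and the same steps were tested on simulated data. Named genes are up to 4 called members per direction and comparison by size of change, called core subunits, 5 members called most often (ties, here among 12 members at 3 calls, ordered by mean absolute change), the 3 highest and lowest levels, members that lack or change a peak, the targeted genes, and up to 3 called genes of each other list. Other called members in the text were added after their values were seen. Since called genes were named by size of change, the separation of their libraries is description only. Values of 1 member, which enters the counts, are not reported here. Alternatives were RLE size factors, DESeq2 1.42.0, no filter, a replicate block, leaving out each library, and for peaks other windows (0.5 and 2.5 kb), a -log10 q of at least 10 and an overlap of 100 bp. Members and lists were chosen with earlier results of these data known. Expressed genes are the protein-coding genes tested in the Rybp knockout comparison, also where peaks of other lines are described.

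In the headers, S5-DOX_R2 was read as rTRS DOX replicate 2, RphaseMut_R2 as phase disruption replicate 2, and NTC in the Tet-on RYBP table as vehicle. That table has no lengths or summary rows. The shEV libraries enter both knockdown tables, with 38961268 and 41697967 gene counts in one and 19731613 and 21241931 in the other. Reads assigned to no single gene were 3.06 to 3.68% (ambiguous), and all summary rows 13.7 to 58.5% of totals. No replicate pair agreed within sampling noise.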

Additional observations from a re-analysis of the deposited data

Results flagged for a closer look

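The Rybp knockout and the Rybp knockdown differed in their changes of Nduf genes by a test of the difference itself: 17 members passed, each with the higher value in the knockout. This is 37.8% of the members, against 40.5% of all 18203 genes tested (22.2% above and 18.2% below), a share near the background. Of the other complexes, 5 of 8 listed genes of complex II, 9 of 9 of complex III, 10 of 11 of complex IV and 14 of 16 of complex V also passed, all with the higher value in the knockout. Without shEV replicate 1 the members numbered 15 higher and 1 lower. The largest differences on the log2 scale were those of Ndufb10 (0.741), Ndufb11 (0.483), Ndufb4 (0.481) and Ndufv2 (0.448). All 4 passed when any 1 of the 8 libraries was left out, with RLE size factors and with the replicate block. Line and way of depletion cannot be told apart.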

How the results depend on the processing

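None of the 42 named member results changed direction under an alternative; 24 stayed past the threshold in each and 18 missed it in at least 1. Counts of Nduf genes called moved as follows, and the cause was not tested. With DESeq2 the count was 5 (of 11) in the Rybp knockout, 3 (of 6) in TF-AA and 1 (of 8) in phase disruption, and with no filter on low counts it was 7 in the knockout and 2 in phase disruption. Leaving out 1 library at a time, with a lone library assumed to vary like the other group, gave 5 to 11 calls in the knockout, 14 to 20 in the Rybp knockdown, 21 to 25 in the Wdr5 knockdown, 14 to 19 in rTRS, 0 to 2 in RYBP induction, 1 to 17 in TF-AA, 3 to 5 in phase disruption and 12 to 18 for the difference between knockout and knockdown (15 higher and 1 lower without shEV replicate 1). WDR5 peaks with a -log10 q of at least 10 stood at 14 and 18 promoters (31.1% and 40%, below the 38.2% and 43.9% of expressed genes, whereas over all listed peaks the shares lay above), and H3K4me3 peaks within 0.5 kb at 41 and 41.

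Same-numbered replicates did not deviate together (correlations of deviations from -0.021 to 0.074), so the numbers do not pair the samples. With the replicate block the counts were 11 in TF-AA, 1 in RYBP induction, 25 in rTRS, 23 in the Rybp knockdown and 17 for the difference. With 14512857 to 16354044 gene counts per library, phase disruption had the fewest reads behind low genes such as Ndufaf3.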
